A study of Mus musculus with 36 samples.

Results

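The zinc finger genes of mouse chromosome 7 were described through the H3K9me3 peaks that lay in or near them in liver. H3K9me3, trimethylation of a lysine of histone H3, is a mark of silent chromatin. The members were all bins on chromosome 7 that the deposited annotation assigned to a gene whose symbol starts with Zfp and a number, Zscan, Zik1 or Zkscan. There were 1674 distinct bins of this kind among 414426 in all, and they were assigned to 102 genes. A bin is a whole peak or one stretch of a longer peak, and its gene is the one with the nearest start site. The median member lay 13054 to 14606 bp from that start in a table, and some lay much further away.

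C2H2 zinc fingers are small protein domains that bind DNA and stand in rows, joined by a short linker that most often reads TGEKP. Many of these proteins also carry a KRAB domain, which recruits the corepressor TRIM28 and with it the methyltransferase SETDB1, a writer of H3K9me3 on transposable elements. The genes lie in clusters that grew by duplication, and the long last exon that encodes the fingers is itself known to carry H3K9me3 in several cell types.

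Livers came from female and male offspring of control dams (C), fed a control diet, and of dams with maternal obesity (MO), fed a Western-style diet before mating and through lactation. The study's methods describe floxed littermate controls of a Reg3g fl/fl colony on C57BL/6J, whose dams were mated with wild-type males. Offspring were Reg3g-fl/+ or Reg3g-fl/fl, the genotype of each library not being given in the sources used here, and were taken at 3 weeks or, after a period on chow, at 8 weeks. Each of the 8 groups (CF, MF, CM and MM at both ages) had 4 ChIP libraries, and the series held 4 inputs besides. The values used were the authors' mean log2 CPM (counts scaled to the size of the library) of each bin in 6 tables. For each sex, one table pooled the 8 control libraries of both ages, one the 8 MO and control libraries at 3 weeks, and one those at 8 weeks. No value of a single library was in these columns, so no mean below has a replicate error and no difference was tested. Whole tissue was used, so a change in the share of a cell type and a change of the mark within cells cannot be told apart.

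Each table listed 1 bin of a peak and held 449 to 619 members among 102145 to 159357 bins, or 0.388% to 0.440% of them. As a check of the tissue, 8 genes active in hepatocytes (such as Alb and Apob) were looked up, and 1 to 3 of them (12.5% to 37.5%) had a bin within 1 kb of the start in a table, against 52% to 55.1% of all coding gene symbols. Of 18 genes of the H3K9me3 silencing machinery, 11 to 14 (61.1% to 77.8%) had one, Trim28 and Daxx in all 6 tables. Bins at starts were thus common, and nothing is read from these counts.

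The last coding exons of the zinc finger genes were mostly either under peaks throughout or under none. Of 106 coding genes of these names in the GENCODE M21 models, 49 had at least 50% of that exon under peaks in all 6 tables, 45 in 0 tables and 12 in some. The exons of Zfp27 (21 finger matches in its protein), Zfp30 (12), Zfp74 (18) and Zfp689 (10) were under peaks over 100% of their length in every table. Those of Zfp607a (18 finger matches), Zfp850 (16), Zfp180 (12) and Zfp141 (10) had 0% in every table, although other bins assigned to these genes were among the highest or the most changed members.

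Both kinds of exon encode the same linker, but they differed in base composition. The sequences below show this. The first pair comes from bins in covered exons, and the third from the last coding exon with the lowest GC content among KRAB genes without a peak there. They were read from the RefSeq GRCm38.p6 assembly (the build of the deposited coordinates) on the coding strand, with the codons of TGEKP in capitals.
Zfp689, chr7:127444584-127444823, minus strand: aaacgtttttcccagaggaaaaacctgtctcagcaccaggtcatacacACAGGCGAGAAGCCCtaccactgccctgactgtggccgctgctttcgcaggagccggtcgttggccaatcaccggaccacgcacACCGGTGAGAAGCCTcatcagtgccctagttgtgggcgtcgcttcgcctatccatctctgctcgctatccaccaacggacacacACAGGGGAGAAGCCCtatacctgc
Zfp27, chr7:29894445-29894684, minus strand: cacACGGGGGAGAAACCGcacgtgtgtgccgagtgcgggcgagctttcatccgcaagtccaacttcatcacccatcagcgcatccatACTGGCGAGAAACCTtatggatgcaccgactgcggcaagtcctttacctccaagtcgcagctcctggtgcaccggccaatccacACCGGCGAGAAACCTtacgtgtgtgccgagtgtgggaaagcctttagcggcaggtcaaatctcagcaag
Zfp936, chr7:43189483-43189722, plus strand: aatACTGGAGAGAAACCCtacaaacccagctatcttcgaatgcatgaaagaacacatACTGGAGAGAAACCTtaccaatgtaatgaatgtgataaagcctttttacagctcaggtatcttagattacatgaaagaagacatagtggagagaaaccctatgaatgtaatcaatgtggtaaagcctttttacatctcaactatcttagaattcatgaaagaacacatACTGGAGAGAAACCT
The stretch of Zfp689 has 58.3% GC, that of Zfp27 57.9% and that of Zfp936 36.2%.

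Across genes, the 49 covered exons had a median GC content of 56.9% and the 45 exons under no or little peak 43.8%. Within the 58 genes with a KRAB match the ranges overlapped only in part, at 45.3% to 61.1% (median 51.0%, 23 genes) against 36.7% to 50% (median 42.5%, 28 genes). GC content and the share of the exon under peaks, averaged over tables, had a Spearman's rho of 0.73 across the 106 genes and 0.76 across the 58. These are descriptions, since the genes share libraries and, within clusters, sequence. The exons of Zfp180 (51.9% GC) and Zscan22 (52.4%) were exceptions, long and GC-rich but under 50% covered in every table.

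**Figure D1:**
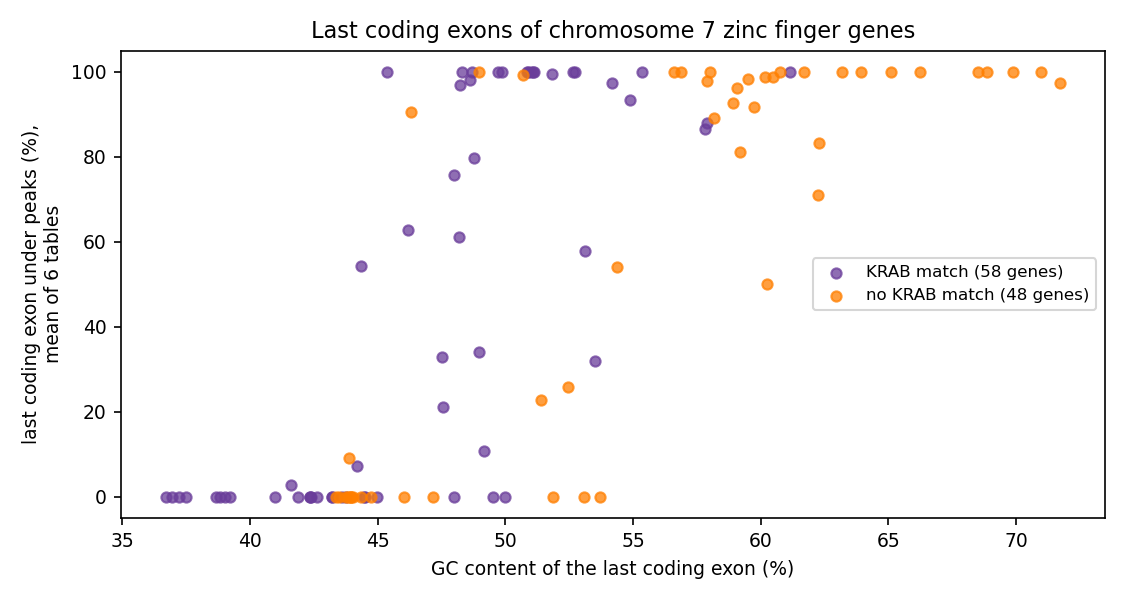
Share of the last coding exon under listed peaks (vertical axis, %, mean of 6 tables) against its GC content (horizontal axis, %); each point is 1 of 106 zinc finger genes of chromosome 7, coloured by KRAB match. Below 45% GC only Zfp383 exceeds 50% (54.3%), while 28 of the 30 exons at 55% GC or more lie above 80%.

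The other coding genes of the chromosome showed the same order with GC content, and the gap to the zinc finger genes was widest in the middle of the range. Below 45% GC, 0 of 35 zinc finger exons and 6 of 438 others were covered in all 6 tables. From 45% to 50% GC it was 11 of 21 (52.4%) against 13 of 323 (4.02%). From 50% to 55% it was 11 of 20 (55%) against 102 of 396 (25.8%), made up of 10 of 13 KRAB genes and 1 of 7 (14.3%) without a match, and from 55% up 27 of 30 (90.0%) against 516 of 744 (69.4%). Finger exons are long. Over all GC contents, 34 of 70 zinc finger exons of at least 1 kb (48.6%) and 82 of 122 others (67.2%) were covered in all 6 tables. The median GC content of these long exons was 48.5% and 56.5%. Among exons of at least 1 kb the counts were 10 of 16 against 1 of 12 at 45% to 50% GC, 10 of 14 against 14 of 23 at 50% to 55%, and 14 of 14 against 67 of 71 above. The gap between long exons was thus narrower than that between all exons at 50% GC and over, and only 12 other genes were left in the band from 45% to 50%. The part of exon length in it was not tested.

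**Figure D2:**
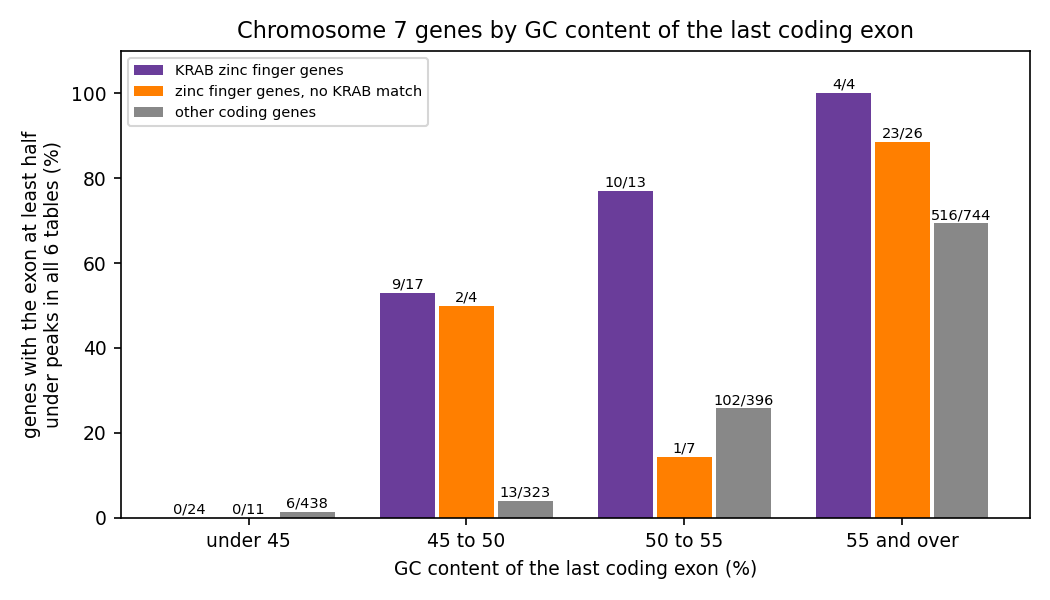
Genes of chromosome 7 with at least 50% of the last coding exon under peaks in all 6 tables (vertical axis, %), by GC content of that exon (horizontal axis, %), for KRAB zinc finger genes, zinc finger genes without a KRAB match and other coding genes, with counts above the bars. In the band from 45% to 50% the counts are 9 of 17, 2 of 4 and 13 of 323, and from 50% to 55% they are 10 of 13, 1 of 7 and 102 of 396.

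Near-identical copies limit what mapped reads can show, so the share of 64-base words that occur more than once in the genome was counted in each exon. It was over 10% in 15 of the 45 exons under 50% covered in every table and in 4 of the 49 covered ones. The highest shares were in the Zscan4 genes, known for a burst of expression in the early embryo, with 95.9% in Zscan4b and 93.0% in Zscan4f, and no last coding exon of that cluster was covered. However, 24 of the 45 exons had no repeated word. Within KRAB genes repeated words differed little with coverage, with none in 16 of 28 exons under 50% covered and in 13 of 23 covered ones, and over 10% in 7 and 4. The part of GC content and of repeated words in coverage was not tested.

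Coverage also went by cluster, where clusters were parted by gaps over 1 Mb between starts. In the cluster from Zfp180 to Zfp526, 12 of 14 last coding exons were covered in all tables, and in that from Zfp553 to Zfp646 it was 9 of 10. All 6 were covered from Zfp628 to Zfp580, where no gene had a KRAB match. In contrast, 0 of 9 were covered from Zfp607b to Zfp36 and 1 of 10 from Zfp788 to Zfp819, a cluster in which all 10 genes had a KRAB match. Clusters with KRAB genes were thus found at both ends of this range. At starts, 29.2% to 32.1% of the 106 genes had at least 50% of the 1 kb around the start under peaks, against 40.2% to 44.3% of 1901 other coding genes. In females the shares were 22.4% to 25.9% for KRAB genes and 39.6% for those without a match, and in males 29.3% to 32.8% and 29.2% to 31.2%.

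Most members lay outside coding sequence. Distal intergenic bins made up 37.4% to 40.3% of them (31.0% to 31.9% of other chromosome 7 bins) and promoters, within 3 kb of a start, 19.7% to 22.7% (25.2% to 29.3%). Bins mostly in coding sequence made up 8.40% to 11.1% (4.98% to 7.40%). Codons of TGEKP were found in 27 of 493 members at 8 weeks in females (5.48%, 95% Wilson interval 3.79% to 7.85%) and in 26 of 449 in males (5.79%). In females this compares with 2.85% (interval 2.12% to 3.83%) of zinc finger bins on other chromosomes and 0.108% of all bins. The intervals cover counting only. Of 101 distinct members with a linker, 88 lay in the coding exon of a zinc finger gene and 77 in that of the gene they were assigned to.

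The level of the members as a whole was close to that of all bins. The median member was 0.03 to 0.08 log2 above the median of all bins of its table. For bins of KRAB genes it was 0.07 to 0.19 above, and for members with a linker 0.23 to 0.67. The upper tail was heavier: 7.16% to 11.8% of members, and 12.1% to 17.4% of those of KRAB genes, lay above the level exceeded by 5.00% of all bins. For zinc finger bins on other chromosomes this share was 10.5% to 12.5%, and for the vomeronasal receptor (Vmn) bins of chromosome 7 it was 14.7% to 20.7%. The members were thus not the highest family of the chromosome by this measure.

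Bins were spread unevenly over the genes. Zfp536, a repressor of neuronal differentiation, was assigned 564 bins over the 6 tables, Zfp507 339 and Zfp619, with the most finger matches (33), 85. Without Zfp536 and Zfp507 the median member was 0.08 to 0.16 above all bins. Of the 102 genes, 93 had a bin in all 6 tables. Zfp296 had an assigned bin only in control females, at 2.54 log2 CPM. Its last coding exon was nevertheless 97.8% to 100% under peaks in every table. Zfp566, Zik1, Zscan4e and the models Zscan4-ps1, Zscan4-ps2 and Zscan4-ps3 had no bin.

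The highest member bin, assigned to Zfp784, lay in its neighbour Zfp865, a gene with 20 finger matches. At chr7:5031777-5032277 (mm10), 82.8% of it within the Zfp865 coding exon, it stood at 4.19 log2 CPM in control males, 3.08 in males at 3 weeks and 5.13 (35.1 CPM) in males at 8 weeks. The table medians were 2.10, 2.03 and 2.74, so it was above them in each. In control females another bin of that exon stood at 4.56. In females at 3 and 8 weeks the highest bin lay in the coding exon of Zfp784 itself, at 2.76 and 3.18.

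For Zfp579, Zfp146, Zfp30 and Zfp27 the highest bin over the 6 tables lay in the gene's own finger exon. For Zfp110 it lay in an earlier coding exon of the gene, outside the last one. In some tables the bin listed highest lay elsewhere. Zfp579 stood at 3.63, 3.40 and 3.90 in females (control, 3 weeks and 8 weeks) and 4.05, 2.70 and 4.85 in males, the 2.70 being a distal bin. Zfp146 stood at 3.97, 2.93 and 2.93 in females and 3.98, 2.04 and 4.64 in males, where the bin of controls and of 8 weeks lay in the coding exon and held 3 linkers. Its bin in control females was 32.1% coding, and its other 3 bins were intergenic or intronic. Zfp110 was the steadiest, with the same exon bin at 4.23, 4.23 and 4.20 in females. In males that exon stood at 3.92 in controls and 4.52 at 8 weeks, and only an intron bin, at 2.49, was the highest at 3 weeks. Zfp30 stood at 4.42, 2.88 and 3.50 in females and 4.31, 2.42 and 4.04 in males, the 2.88 being a bin outside its coding exons and the 2.42 a promoter bin. Zfp27, part of whose exon is printed above, stood at 4.41, 3.49 and 3.58 in females and 4.41, 2.47 and 3.40 in males. The 2.47 and 3.40 come from a distal bin outside that exon. In these genes, Zfp110 in females apart, the listed bin changed between tables, so their values are not a series of 1 place.

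The other top genes owed their place to bins outside their finger exons. The Zfp850 intron bin was listed in all tables, 77.4% masked as repeat in females, at 3.86, 3.18 and 4.21 there and at 3.63, 3.18 and 4.45 in males. Zfp74 stood at 3.73, 3.34 and 3.49 in females and 3.80, 2.91 and 4.58 in males, where its bin was 93.8% masked. Zfp180 stood at 4.05, 3.74 and 4.29 in females and 3.53, 3.40 and 4.13 in males, where its bin was 87.0% masked. Zfp607a stood at 4.04, 3.26 and 4.36 in females and 4.05, 3.09 and 4.42 in males, in exons of transcripts some way from its start. The female values of Zfp74 and Zfp180 at 3 and 8 weeks come from different bins. The Zfp74 bin listed highest at 8 weeks in females stood at 2.86 at 3 weeks, and the Zfp180 bin at 3.68.

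**Figure D3:**
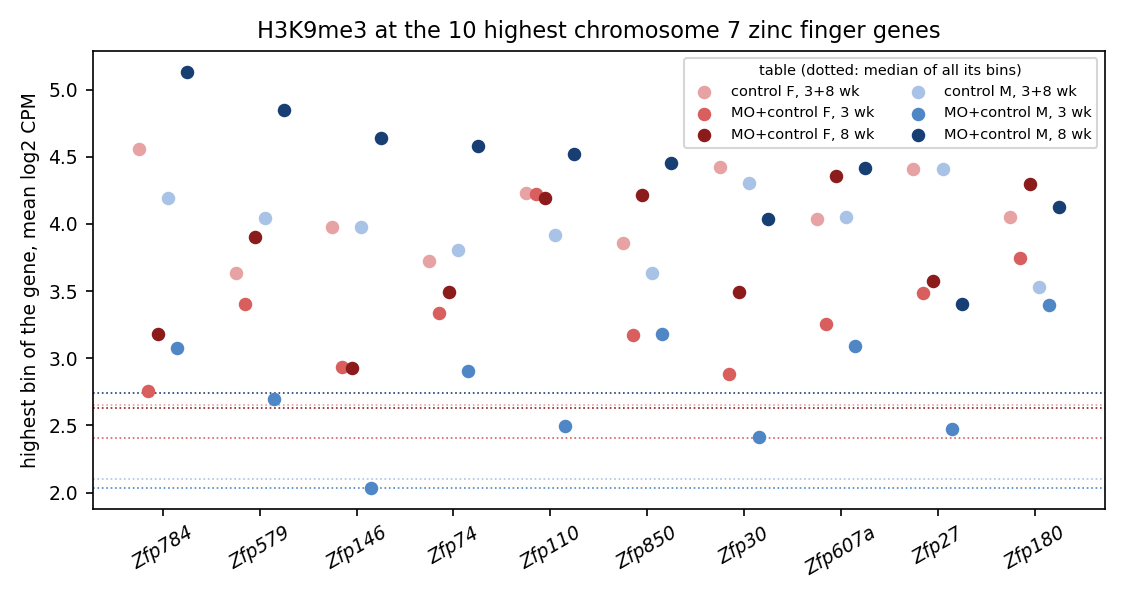
Highest bin (vertical axis, authors' mean log2 CPM) of the 10 zinc finger genes with the highest values (horizontal axis) in each of the 6 tables, coloured by table; dotted lines are the medians of all bins, and no error bar is drawn because the values are pooled means. The male 8-week table holds the highest points, 5.13 for Zfp784 and 4.85 for Zfp579, over a table median of 2.74.

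The change between 3 and 8 weeks was read from the MO and control tables of each age, over bins listed with the same coordinates in both. The median bin was 0.22 log2 higher at 8 weeks in females and 0.63 in males, and this shift was removed from every difference. Of member peaks cut into bins and listed at both ages, the same bin was listed in 66.9% in females and 58.9% in males. The others are left out of the difference by a choice of bin whose rule is not given in the sources used here. Of 327 members in females, 9 (2.75%) were over 1.5 fold higher at 8 weeks, against 1.82% of all autosomal bins, and 3 (0.917%) were lower, against 1.23%. Of 304 members in males, 21 (6.91%) were higher, against 3.26%, and 9 (2.96%) were lower, against 1.65%. With the trend over GC content and level removed, males had 10 higher (3.29%, against 2.19%) and 8 lower (2.63%, against 1.18%), and females 10 (3.06%, against 0.992%) and 4 (1.22%, against 0.927%). Counted by gene, 0 of 90 were higher and 1 lower in females (1.11% past the fold, against 1.03% of all genes). In males 4 of 89 were higher and 1 lower (5.62%, against 1.90%). The median member differed by only 0.03 in females and 0.04 in males, so a minority of bins made up these counts.

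Higher bins were assigned mainly to KRAB genes. In females 8 of 134 bins of KRAB genes (5.97%) and 1 of 193 of the other members (0.518%) were over 1.5 fold higher, and in males 15 of 126 (11.9%) and 6 of 178 (3.37%). Zinc finger bins on other autosomes had 4.98% and 6.62%, and the other chromosome 7 bins 1.53% and 2.91%. Bins of KRAB genes also differed in level (median 2.61 log2 CPM against 2.48 in males) and GC content (52.4% against 54.4%). With the trend over GC content and level removed, most of this gap went: 5 of 134 bins of KRAB genes (3.73%) and 5 of 193 others (2.59%) were higher in females, and 6 of 126 (4.76%) and 4 of 178 (2.25%) in males.

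**Figure D4:**
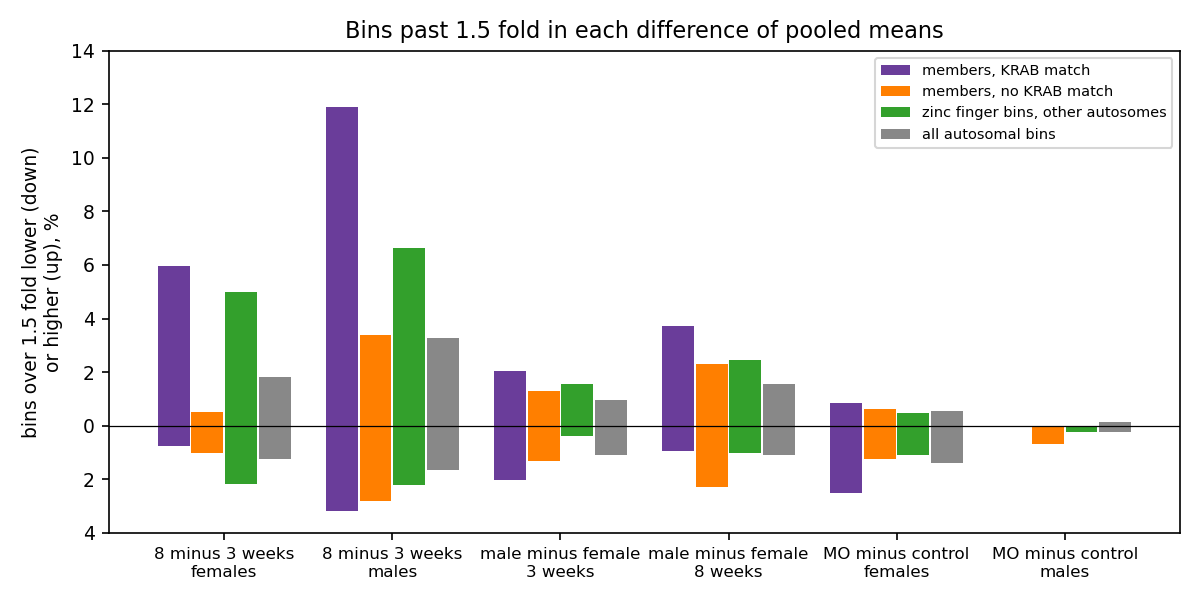
Bins over 1.5 fold higher (upward, %) or lower (downward, %) in each difference of pooled means (horizontal axis), for members of KRAB genes, other members, zinc finger bins on other autosomes and all autosomal bins. The tallest bar is that of KRAB genes in males at 8 against 3 weeks (11.9%).

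In females the largest gains were in an intergenic bin assigned to Zfp141 (2.40 log2 CPM at 3 weeks and 3.45 at 8 weeks, 1.79 fold after centring), the Zfp850 intron bin (3.18 and 4.21, 1.77 fold) and an intron bin of Zfp536 (2.31 and 3.24, 1.65 fold). The largest losses were in an exon of Zfp110 (3.60 and 2.80, 2.02 fold lower), an intron of Zfp939 (2.90 and 2.44, 1.6 fold) and an intergenic bin of Zfp507 (2.79 and 2.42, 1.5 fold). The Zfp110 bin, chr7:12846362-12846862, lay in the same gene as the exon bin that stood at 4.23 and 4.20 at the same ages.

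In males the largest gain was in the Zfp784 bin within Zfp865 (3.08 and 5.13, 2.68 fold), followed by the Zfp74 bin (2.91 and 4.58, 2.06 fold) and an exon bin assigned to Zfp141 (2.51 and 4.15, 2.02 fold). The largest losses were in promoter bins of Zscan4d (2.53 and 2.32, 1.80 fold lower) and Zfp180 (2.95 and 2.82, 1.69 fold) and an intron of Zfp975 (2.86 and 2.72, 1.70 fold). Before centring these 3 losses were small, so they rest largely on the shift of all bins. The Zfp689 finger exon printed above went from 2.85 to 4.25 (1.71 fold), a member singled out after its values were seen.

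The age difference could be set side by side between sexes, which share no library. At 147 places where members of both sexes overlapped by at least 50%, the differences had a Pearson's r of 0.49 and a Spearman's rho of 0.46, and 90 (61.2%) had the same sign. Over all 32465 autosomal places r was 0.45 and 64.5% had the same sign, values close to those of the members. These are descriptions across bins, which share the scaling of their tables. Bins of Zfp141 and Zfp850 were over 1.5 fold higher in both sexes, 0 members were lower in both, and 0 were past that fold in opposite directions. The 2 places are 1.36% of the 147, near the 0.976% (317) of all autosomal places that were higher in both. The Zfp141 bin went from 2.40 to 3.45 in females and from 2.20 to 3.72 in males, and the Zfp850 bin from 3.18 to 4.21 and from 3.18 to 4.45.

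Both of these places are mostly repeat sequence. They are printed because they are the only ones of the 147 paired places past 1.5 fold in both sexes. Members past the fold elsewhere had no paired bin in the other sex. The sequences are on the plus strand of GRCm38.p6, with the bases outside masked repeats in capitals.
Zfp141, chr7:42534275-42534574, plus strand: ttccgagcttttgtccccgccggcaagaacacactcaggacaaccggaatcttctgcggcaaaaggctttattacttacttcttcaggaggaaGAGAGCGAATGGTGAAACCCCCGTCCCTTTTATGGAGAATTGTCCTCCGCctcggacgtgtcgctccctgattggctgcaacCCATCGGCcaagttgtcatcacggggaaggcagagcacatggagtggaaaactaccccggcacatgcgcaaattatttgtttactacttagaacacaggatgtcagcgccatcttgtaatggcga
Zfp850, chr7:27994011-27994310, plus strand: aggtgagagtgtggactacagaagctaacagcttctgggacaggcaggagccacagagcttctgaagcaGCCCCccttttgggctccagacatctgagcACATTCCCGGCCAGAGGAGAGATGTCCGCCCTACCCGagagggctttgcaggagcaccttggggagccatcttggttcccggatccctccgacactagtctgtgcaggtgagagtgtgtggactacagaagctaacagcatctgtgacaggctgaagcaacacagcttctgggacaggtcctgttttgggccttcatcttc
The first stretch is 80.7% masked and the second 86%, where the median member bin was 15.0% to 15.7% masked in the 3 female tables.

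**Figure D5:**
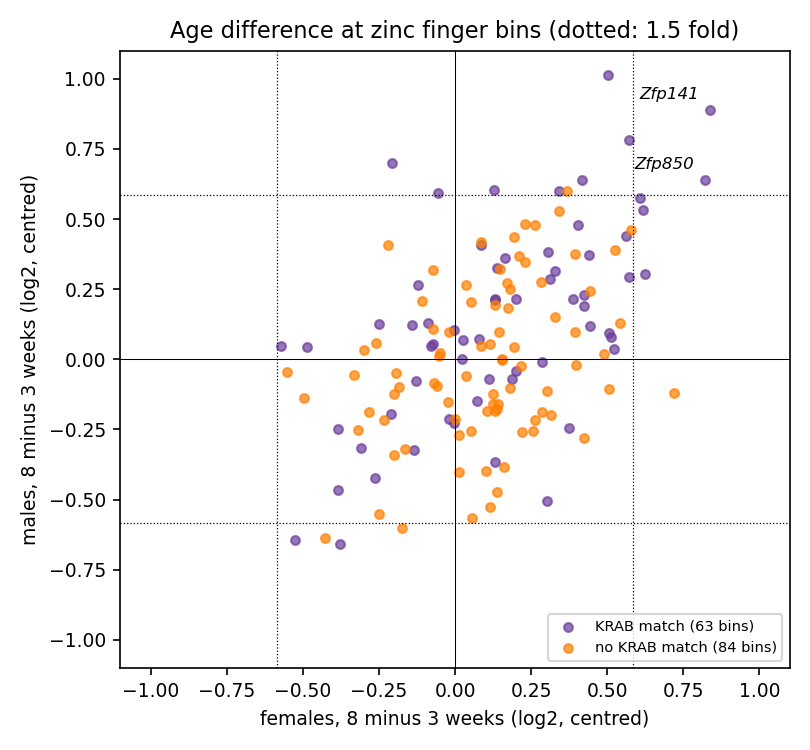
Age difference (8 minus 3 weeks, log2, centred) in females (horizontal axis) and males (vertical axis) at 147 places where member bins of both sexes overlap by at least 50%, coloured by KRAB match, with dotted lines at 1.5 fold. Only Zfp141 and Zfp850 lie past 1.5 fold in both sexes.

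Peak lists of the 2 ages were also set side by side, with no test. Of 556 members at 3 weeks in females, 432 (77.7%) had their peak listed at 8 weeks, against 73% of all bins, and in males 426 of 619 (68.8%) against 60.7%. In the other direction, 87.6% of members at 8 weeks were listed at 3 weeks in females, against 88.1% of all bins, and 94.7% against 94.7% in males. A peak that is not listed may have missed a peak call or a count filter, so this is not a measure of the mark.

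Few members differed between the sexes. At 3 weeks, 4 of 251 (1.59%) were over 1.5 fold higher in males, against 0.954% of all bins, and 4 (1.59%) were lower, against 1.11%. Higher in males were promoter bins of Zfp180 (2.52 log2 CPM in females and 2.95 in males, 1.68 fold after centring), Zfp941 (2.08 and 2.47, 1.63 fold) and Zfp626 (1.91 and 2.19, 1.52 fold). Lower were promoter bins of Zfp541 (3.27 and 1.98, 1.97 fold) and Zfp850 (3.05 and 1.93, 1.76 fold) and an intron bin of Zfp260 (2.96 and 1.86, 1.73 fold). Promoter bins made up 46 of the 251 members compared, with 3 on the higher side (6.52%) and 2 on the lower (4.35%), against 0.838% and 1.39% of all autosomal promoter bins. These are 5 bins, and paired bins of the sexes differ in position. The Zfp180 pair shares 52.1% of the longer bin, the Zfp941 pair 50.1%, the Zfp541 pair 55.5%, the Zfp850 pair 62.5% and the Zfp626 pair 93.2%. The median member pair shares 81.7%. The part of this offset in the differences was not tested.

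At 8 weeks, 7 of 238 (2.94%) were higher in males, against 1.56%, and 4 (1.68%) lower, against 1.11%. Higher were the finger exons of Zfp579 (3.90 and 4.85, 1.81 fold) and Zfp235 (3.00 and 3.75, 1.58 fold) and an intergenic bin of Zfp954 (2.40 and 3.18, 1.6 fold). Lower were intergenic bins assigned to Zscan4c (3.42 and 2.57, 1.93 fold), Zfp141 (3.01 and 2.34, 1.69 fold) and Zfp536 (3.30 and 2.66, 1.66 fold). The Zfp536 bin lay 286165 bp from the nearest start of that gene. Peaks were merged within a sex, and the pairs named here share 60.1% (Zfp235) to 82.6% (Zfp954) of the longer bin, against a median of 83% over members.

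Since the deposited comparisons of MO with control were not used, maternal obesity was read by subtraction of pooled means, as a mean over both ages. The tables were scaled separately, and the median difference over all bins, -0.25 log2 in females and 0.44 in males, was removed. In females 2 of 283 members (0.707%) were over 1.5 fold higher in MO, against 0.551% of all bins, and 5 (1.77%) lower, against 1.38%. In males 0 of 256 were higher, against 0.153%, and 1 (0.391%) lower, against 0.252%. These shares per bin were near the background. Counted by gene, 3 of 85 genes (3.53%) were past the fold in females, all lower, against 0.979% of all genes. With each table scaled to its median first, a choice made after seeing the data, males had 1 higher and 3 lower (1.56%, against 0.955% of all bins). Females then had 2 higher and 2 lower (1.41%, against 0.890%), so the larger number of lower bins in females depended on the scaling. Without that scaling, the higher bins in females were an intergenic bin assigned to Zfp619 (1.65 fold), 471687 bp from its start, and the end of Zscan2 (1.57 fold). The lower ones were led by promoter bins of Zfp719 (1.70 fold) and Zfp526 (1.6 fold) and an intron of Zfp975 (1.57 fold). The bin in males was in an intron of Zfp592 (1.53 fold).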

How the data were processed

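According to the study's methods, the authors aligned reads to mm10 (GRCm38), called broad peaks with MACS2, kept peaks found in at least 3 replicates of a condition, merged them within a sex, cut long peaks into bins, counted reads and compared groups with edgeR. The deposited log2 CPM is the authors' mean over the 8 libraries of a table, and the deposited distance to the nearest start comes from their annotation. The tables also hold the authors' own comparisons (log2 fold change, p-value and FDR), which were not used. Depth per library is not in these columns. There were 0 other columns of per-sample values.

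The members and lists were chosen with earlier results of these data known. Bins were paired by identical coordinates (age, diet) or by an overlap of at least 50% of the longer bin (sex), and log2 differences were centred on the median of paired autosomal bins. MO was taken as the sum of the 3-week and 8-week CPM less the control CPM. Gene models were GENCODE M21. KRAB, C2H2 finger and TGEKP matches were patterns on translated sequence, linkers on both strands. The first SCAN pattern found 0 genes and a later one 1, so SCAN was not used.

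Named were the 10 genes with the highest bin, the 3 largest gains and losses past 1.5 fold per difference with 1 bin per gene, genes in 1 table only, and the 3 genes with most bins. Others were named after their values were seen. Alternatives were folds of 2 and 1.25, no centring, centring on chromosome 7, higher levels only, GC and level trends removed, counting by gene, peaks of 1 bin and other matching. Added after seeing the data were the scaling of each table to its median and the omission of Zfp507 and Zfp536. Python 3.11.15, numpy 2.4.6, pandas 2.3.3 and scipy 1.17.1 were used.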

Additional observations from a re-analysis of the deposited data

How the results depend on the processing

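Counts of members past the fold depended on the fold and the centring. In the order age in females, age in males, sex at 3 weeks, sex at 8 weeks, MO in females and MO in males, the counts were 12, 30, 8, 11, 7 and 1. At 2 fold they were 1, 3, 0, 0, 0 and 0, where 0.0375% and 0.239% of all bins passed for age. At the lower fold tried they were 82, 97, 57, 56, 56 and 29, or 25.1%, 31.9%, 22.7%, 23.5%, 19.8% and 11.3% of members against 22.8%, 26.3%, 19%, 20.2%, 19.5% and 12% of all bins. Without centring they were 47, 181, 34, 16, 23 and 66, or 14.4%, 59.5%, 13.5%, 6.72%, 8.13% and 25.8% against 9%, 56.6%, 13.6%, 3.66%, 9.88% and 24.5%. The split of higher and lower then turned to 46 and 1, 181 and 0, 0 and 34, 12 and 4, 0 and 23, and 66 and 0, from 9 and 3, 21 and 9, 4 and 4, 7 and 4, 2 and 5, and 0 and 1. Above the median level they were 4, 14, 1, 4, 4 and 0 (2.41%, 8.81%, 0.709%, 2.86%, 2.68% and 0% against 1.67%, 3.54%, 0.613%, 1.26%, 1.3% and 0.169%). Counted by gene they were 1, 5, 3, 0, 3 and 0 (1.11%, 5.62%, 4%, 0%, 3.53% and 0% against 1.03%, 1.9%, 0.825%, 1.17%, 0.979% and 0.113%). In peaks of 1 bin they were 3, 8, 1, 1, 2 and 0 (2.61%, 6.2%, 1.85%, 2.04%, 1.89% and 0% against 3.25%, 4.71%, 1.41%, 1.64%, 1.88% and 0.375%). These settings keep fewer features. With GC and level trends removed they were 14, 18, 8, 10, 5 and 0 (4.28%, 5.92%, 3.19%, 4.2%, 1.77% and 0% against 1.92%, 3.37%, 1.98%, 2.56%, 1.45% and 0.365%). With each table scaled to its median first, chosen after seeing the data, the MO counts were 4 and 4 (1.41% and 1.56% against 0.89% and 0.955%). Why counts moved was not tested. Centring on other chromosome 7 bins gave 12, 30, 9, 11, 7 and 1. The mean of the members' median level above all bins was 0.06, 0.10 counted by gene and 0.019 in peaks of 1 bin. At 8 weeks in females, 3.25% of members had at least 2 linkers and 8.72% a C2H2 match, against 8.91% with a C2H2 match in males. Promoters within 1 kb held 14.4% and 15.1% of members. Above the median level members made up 0.482% and 0.513% of bins. No member bin had identical coordinates in both sexes, so that pairing gave no value. No paired analysis was possible because the columns used hold no value of a single library, and for the same reason no library could be left out.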
